A study of Homo sapiens with 8 samples.

Results

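The SOX genes encode transcription factors that bind DNA through an HMG box, and 10 of them were followed through RNA-seq of Hep3B cells, a human hepatocellular carcinoma line. They were taken by name: SOX4, SOX11 and SOX12 of the SoxC group, SOX5, SOX6 and SOX13 of the SoxD group, SOX9 of the SoxE group, and SOX2, SOX15 and SOX18 of the SoxB1, SoxG and SoxF groups. Of these 10, 9 were listed in each of the deposited tables, among 16040 gene names in the table of the SOX4 knockout and 14955 in the table of the siRNA experiment. SOX11 has no row in either table, where the smallest listed transcript held 10 expected counts summed over 4 libraries, and it was not analysed here. The question was whether the paralogs of SOX4, or other members of the family, differed where SOX4 had been edited.

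The 8 libraries were 2 each of 4 conditions, all made from Hep3B RNA with a stranded mRNA kit. The first table holds Hep3B labelled WT and Hep3B labelled as SOX4 knockout (the knockout-labelled libraries), which the study made with CRISPR/Cas9 as the lines SOX4-/- #1 and #2 and kept in puromycin. Puromycin is named for the knockout cells only, so the edit, the derivation of the lines and the drug cannot be told apart in this comparison. The second table holds Hep3B transfected with scramble siRNA (labelled control si) and Hep3B transfected with STAT6 siRNA. Which library came from which knockout line is not stated in the labels, nor whether libraries of the other groups came from separate cultures, so p-values measure the spread between these libraries only. Library totals ranged from 16266282 to 25353113 expected counts, that is, estimated reads per transcript summed over all transcripts. All 9 hepatocyte and hepatoma markers examined (ALB, AFP, APOA1, APOB, TTR, TF, SERPINA1, FGB and HNF4A) were listed in both tables. Their summed level was 11645 to 16203 CPM (TMM-normalized counts, scaled to a common library total) in Hep3B and 31161 to 52194 in the knockout-labelled libraries. ALB was the largest part, with 7458 and 6824 CPM in Hep3B and 28445 and 13644 CPM in the knockout-labelled libraries, and was not called. Of the 9, 3 were called higher there, as were 4.5% of all genes tested. AFP alone had a log2 fold change below 0 (-0.76, not called), with 149 and 30.6 against 75.2 and 30.9 CPM. The part of this difference in the SOX levels was not tested.

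SOX proteins bend DNA at short AT-rich sites and usually act with a partner protein, so that the same box serves different programmes in different tissues. SoxC proteins maintain progenitor states in many embryonic tissues, SOX9 marks the bile duct and progenitor compartment of the liver and drives cartilage formation together with the SoxD proteins SOX5 and SOX6, SOX2 maintains pluripotent cells, and SOX18 acts in the endothelium. SoxC proteins carry a transactivation domain, whereas SoxD proteins have none and act through coiled-coil dimerization.

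The coding stretch that the members share shows how close the paralogs are and how far reads could be confused among them. The next lines give 90 coding bases inside the HMG box, from the GENCODE release 29 transcripts (GRCh38), for the 3 SoxC members and for SOX13 and SOX9, the members with the highest levels outside SoxC. Capitals mark bases that differ from SOX4 at the same place. The SOX4 stretch lies in its only exon, on the plus strand, at chr6:21594718-21594807, that of SOX11 at chr2:5692875-5692964, that of SOX12 at chr20:326051-326140, that of SOX13 at chr1:204123708-204123797 and that of SOX9 at chr17:72121713-72121802.
SOX4: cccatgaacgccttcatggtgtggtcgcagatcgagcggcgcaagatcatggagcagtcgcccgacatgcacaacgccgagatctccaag
SOX11: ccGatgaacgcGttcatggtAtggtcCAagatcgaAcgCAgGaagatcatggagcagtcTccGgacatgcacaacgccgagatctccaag
SOX12: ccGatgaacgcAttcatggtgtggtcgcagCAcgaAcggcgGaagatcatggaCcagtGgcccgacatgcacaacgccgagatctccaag
SOX13: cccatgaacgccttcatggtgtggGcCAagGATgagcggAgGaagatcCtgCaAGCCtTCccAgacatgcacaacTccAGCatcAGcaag
SOX9: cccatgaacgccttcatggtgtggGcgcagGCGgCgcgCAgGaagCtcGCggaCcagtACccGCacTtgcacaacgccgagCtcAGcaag

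In this stretch SOX12 matched SOX4 at 82 of 90 bases, SOX11 at 79 and SOX9 at 70. SOX13 and SOX2 matched it at 67 bases, SOX15 at 66, SOX5 and SOX18 at 63, and SOX6 at 60. Over the whole coding sequences, the longest exact run shared by any of the 45 pairs of members was 35 bases, between SOX11 and SOX12, and the median was 17. SOX4 and SOX12 shared at most 33 bases, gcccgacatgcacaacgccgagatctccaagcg, which falls partly in the stretch above. In GRCh38 the genes span chr6:21592768-21598619 (SOX4), chr20:325595-330224 (SOX12), chr1:204073115-204127743 (SOX13) and chr17:72121020-72126420 (SOX9). The read length is not given in the sources used here. SOX4, SOX11, SOX12 and SOX2 are single-exon genes. SOX4 is overlapped by the antisense gene AL512380.2, SOX12 by NRSN2-AS1, and SOX9 by SOX9-AS1, all on the opposite strand, SOX2 lies within SOX2-OT on the same strand, and SOX15 overlaps MPDU1. Whether counting used strand is not given in the sources used here.

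Sequence before the transcription start was read for SOX12, SOX13 and SOX5, which stood higher in the knockout-labelled libraries, and for SOX2, which stood lower. SOX6, which also stood higher and had several start windows, is not printed. RefSeq windows of GRCh38.p14 that run from 250 bases before to 50 bases after a start matched 6 of the 10 members by symbol (SOX2, SOX4, SOX5, SOX6, SOX12 and SOX13). The part upstream of both the RefSeq and the GENCODE start is printed 5′ to 3′ on the strand of the gene, for SOX12 at chr20:325302-325551 on the plus strand, SOX13 at chr1:204072865-204073114 on the plus strand, SOX5 at chr12:24562545-24562741 on the minus strand and SOX2 at chr3:181711675-181711923 on the plus strand. Capitals mark matches to the SOX consensus.
SOX12: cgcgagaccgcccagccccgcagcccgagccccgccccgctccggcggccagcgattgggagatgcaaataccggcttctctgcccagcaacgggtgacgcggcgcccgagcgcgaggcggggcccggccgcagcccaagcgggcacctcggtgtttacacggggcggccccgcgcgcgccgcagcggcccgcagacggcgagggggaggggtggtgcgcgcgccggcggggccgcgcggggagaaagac
SOX13: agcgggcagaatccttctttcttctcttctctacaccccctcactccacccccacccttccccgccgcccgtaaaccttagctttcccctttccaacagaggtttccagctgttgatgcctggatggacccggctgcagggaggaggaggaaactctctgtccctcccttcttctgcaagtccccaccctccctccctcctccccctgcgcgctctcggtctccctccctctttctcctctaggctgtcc
SOX5: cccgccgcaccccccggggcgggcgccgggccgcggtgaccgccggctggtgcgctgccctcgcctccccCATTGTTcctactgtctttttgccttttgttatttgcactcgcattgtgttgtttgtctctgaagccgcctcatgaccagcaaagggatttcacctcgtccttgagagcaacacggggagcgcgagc
SOX2: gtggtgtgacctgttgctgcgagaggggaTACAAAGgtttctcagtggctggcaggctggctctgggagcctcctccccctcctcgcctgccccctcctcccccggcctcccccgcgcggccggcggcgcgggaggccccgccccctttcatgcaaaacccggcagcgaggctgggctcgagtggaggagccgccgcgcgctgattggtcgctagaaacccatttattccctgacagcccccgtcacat

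The consensus was searched on both strands as 8 words of 7 letters, which are AACAAAG and every word made from it by putting T for A at the first, second or sixth letter, in any combination. No match was found in the windows of SOX4, SOX12 or SOX13. The SOX4 window, chr6:21593501-21593800, lies inside the GENCODE span of the gene, so it is not upstream of that start. The windows of SOX6 also lie inside its GENCODE span. SOX2 held TACAAAG 221 bases before its start, SOX5 held AACAATG on the opposite strand 180 bases before its start, and 3 of the 5 SOX6 windows held a match. Counted by window, 5 of the 10 windows of SOX members held at least 1 match, and SOX6 alone gave 5 of these 10 windows. Of all 35116 windows 20.4% held a match, and of the windows of listed genes 14.3%. Matches at 3 of 6 members describe these windows and no more. The SOX12 window was 80.3% G and C, the SOX13 window 62.7% and the SOX4 window 49.3%.

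SOX4, the edited gene, was transcribed in every library. Its TMM-normalized level was 799 CPM in Hep3B library 1, 266 CPM in Hep3B library 2, and 298 and 302 CPM in the knockout-labelled libraries. The knockout libraries were alike and lay between the Hep3B libraries, which stood 3.0-fold apart. The log2 fold change was -0.83 (SE 0.54, 95% interval -2.09 to 0.43), with an adjusted p of 0.372 from edgeR's quasi-likelihood test. Without Hep3B library 1 the log2 fold change was 0.11, and without Hep3B library 2 it was -1.42 (adjusted p = 0.0631). An edit that breaks the protein can leave the transcript in place, and expected counts per transcript do not show the edited bases. These values therefore do not check the label, and the pair is called knockout-labelled. The study examined SOX4 protein in its knockout lines by western blot. It also reports, from ChIP-qPCR, that SOX4 binding at the MTHFD2 promoter was diminished in SOX4-/- cells.

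SOX12, the listed paralog of SOX4 in the SoxC group, stood higher in both knockout-labelled libraries than in either Hep3B library, but did not pass the test. SOX12 had 55.1 and 73.2 CPM in Hep3B and 147 and 117 CPM in the knockout-labelled libraries. The group means were 64.1 ± 12.8 and 132 ± 21.5 CPM (SD, n = 2 each). The log2 fold change was 1.04 (SE 0.35, adjusted p = 0.115), with a 95% interval before adjustment over genes of 0.23 to 1.85, that is 1.17-fold to 3.61-fold. With GC and length offsets the log2 fold change was 0.44 (adjusted p = 0.468). Under those offsets the median over all genes was -0.15, against 0.01 without them. NRSN2, which lies beside SOX12, had 35.5 and 50.2 CPM in Hep3B and 85.3 and 113 CPM in the knockout-labelled libraries (log2 fold change 1.21, adjusted p = 0.0929). NRSN2-AS1, which overlaps SOX12 on the opposite strand, had 2.95 and 2.27 CPM in Hep3B against 2.23 and 2.25 CPM.

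The SoxD group held SOX13, which had the largest fitted log2 fold change in size among the 8 members tested, and whose product was first described as an autoantigen of islet cells. SOX13 had 60.8 and 30.6 CPM in Hep3B and 162 and 148 CPM in the knockout-labelled libraries, and the groups did not overlap. The log2 fold change was 1.76 (SE 0.42, 95% interval 0.79 to 2.73) with an adjusted p of 0.0511, just outside the threshold of 0.05. Of all genes tested, 6.08% had a smaller p than SOX13. It passed the threshold under 6 of 14 other settings. Among them were median-of-ratios factors (adjusted p = 0.0481), upper-quartile factors (0.0431), robust estimation (0.0461) and DESeq2 (0.00355). DESeq2 called 2160 of all 14415 genes, against 849 in the main fit. Leaving out Hep3B library 1 was another of the 6, with a log2 fold change of 2.28 for SOX13. Without knockout library 1 or 2 its adjusted p was 0.241 and 0.240. Over all 14 settings its log2 fold change stayed between 1.34 and 2.28.

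SOX6 and SOX5, the SoxD partners of SOX9 in cartilage, also stood higher in both knockout-labelled libraries without passing the test. SOX6 had 30.6 and 8.81 CPM in Hep3B and 46.9 and 40.6 CPM in the knockout-labelled libraries (log2 fold change 1.15, SE 0.57, adjusted p = 0.243). Hep3B library 2 was the low one, and leaving out Hep3B library 1 gave SOX6 a log2 fold change of 2.25 (adjusted p = 0.00997), against 0.51 (adjusted p = 0.482) without Hep3B library 2. SOX5 was scarce, with 2.21 and 1.90 CPM in Hep3B and 3.11 and 2.53 CPM in the knockout-labelled libraries, which came to 36 to 82 counts per library. Its log2 fold change was 0.46 (95% interval -0.90 to 1.82, adjusted p = 0.663).

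**Figure D1:**
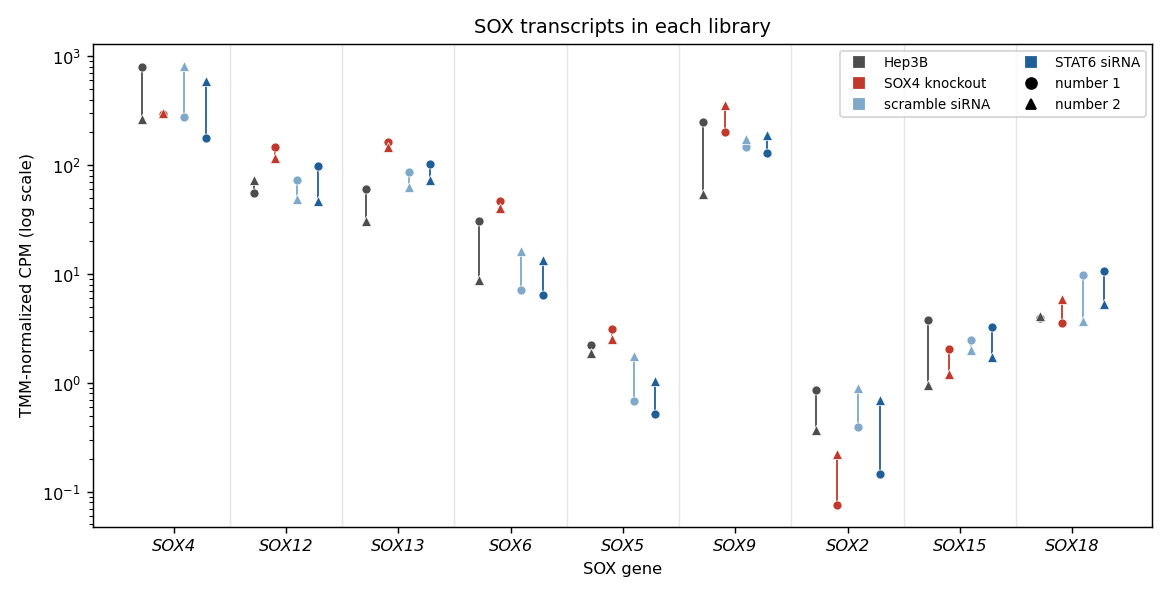
Level of each listed SOX gene in each library, in TMM-normalized CPM on a log axis. Circles are libraries numbered 1, triangles those numbered 2, and a line joins the libraries of a group. SOX12, SOX13, SOX6 and SOX5 lie higher in both knockout-labelled libraries than in both Hep3B libraries, and SOX4 spans 266 to 799 CPM in Hep3B.

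SOX9 varied more within Hep3B than between the groups. SOX9 had 249 and 54.1 CPM in Hep3B, a 4.6-fold gap, and 200 and 354 CPM in the knockout-labelled libraries. The log2 fold change was 0.87 (SE 0.67, 95% interval -0.68 to 2.43, adjusted p = 0.445). Without Hep3B library 1 it was 2.30 (adjusted p = 0.0151), and without Hep3B library 2 it was 0.15 (adjusted p = 0.871). SOX9-AS1, transcribed against it, had 1.27 to 3.64 CPM over the 4 libraries.

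The other 3 members were near the lower end of what was counted. SOX2 had 0.851 and 0.369 CPM in Hep3B and 0.0757 and 0.220 CPM in the knockout-labelled libraries, that is 15, 7, 2 and 4 counts. It was left out of the test by the filter on low counts. Both knockout-labelled libraries lay below both Hep3B libraries, an order that 27.4% of all genes tested showed. SOX15 had 3.75 and 0.949 CPM in Hep3B and 2.04 and 1.21 CPM in the knockout-labelled libraries (log2 fold change -0.52, adjusted p = 0.719). SOX18 had 3.97 and 4.11 CPM in Hep3B and 3.52 and 5.88 CPM (log2 fold change 0.21, adjusted p = 0.836), a sign that turned with the offsets for GC content and length, to -0.62.

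Across the family, 0 of the 8 members tested passed the threshold in the knockout-labelled libraries, where 5.89% of the 14415 genes tested were called and 4.5% were called higher. Of the 8, 2 (SOX12 and SOX13) had an unadjusted p below 0.05, as had 3752 of all genes. DESeq2 called 1 of them, SOX13, and it called 2160 of the 14415 genes, against 849 in the main fit. Of the 8, 6 had a log2 fold change above 0, with a median of 0.66 over the members and 0.01 over all genes. In 4 of the 8 both knockout-labelled libraries lay above both Hep3B libraries, an order that 30.6% of all genes showed. In 0 of the 8 they lay below, against 27.4% of all genes. SOX2, listed but not tested, lay below. Without Hep3B library 1, which leaves 1 Hep3B library, the log2 fold changes of SOX6, SOX9 and SOX13 were 2.25, 2.30 and 2.28.

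**Figure D2:**
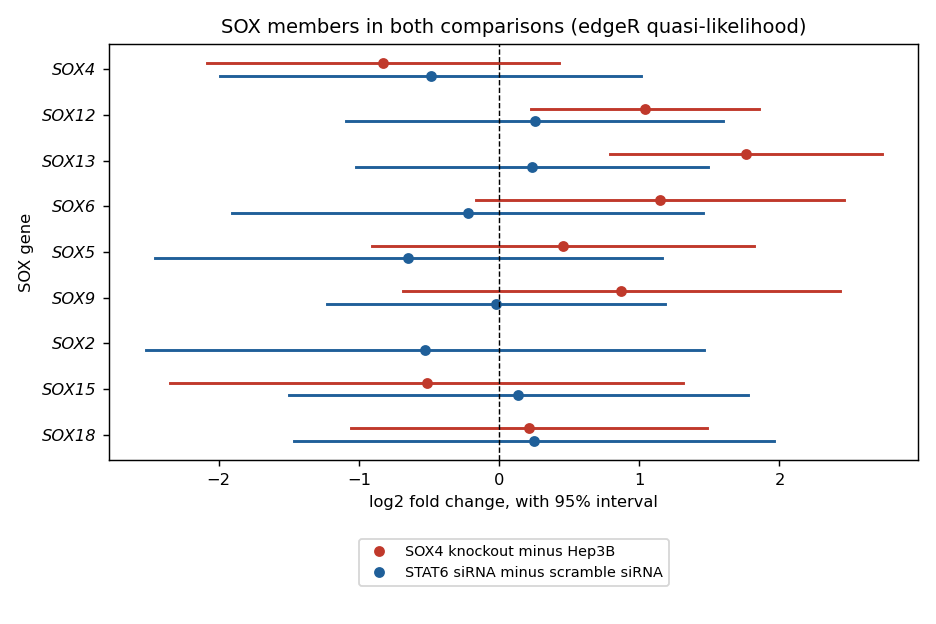
Log2 fold change of each SOX member (x axis) with its 95% interval before adjustment over genes, from edgeR's quasi-likelihood fits of the 2 tables. Red is SOX4 knockout minus Hep3B and blue is STAT6 siRNA minus scramble siRNA. The intervals of SOX12 and SOX13 lie above 0 in the knockout comparison, and every blue interval spans 0. SOX2 was tested in the siRNA table only.

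In the fit without a replicate block, STAT6 siRNA gave 0 SOX members and 0 genes past the threshold. STAT6 itself, a transcription factor of interleukin-4 signalling, had 42.5 and 31.4 CPM with scramble siRNA and 9.92 and 5.98 CPM with STAT6 siRNA (log2 fold change -2.22, adjusted p = 1.00). Of 13554 genes tested, 0% were called, 14 had an unadjusted p below 0.05 in edgeR, and DESeq2 called 0. Even STAT6 was not called in that fit, so 0 calls there do not show that a gene stayed unchanged. With a replicate block edgeR called 62 genes, STAT6 among them, and 0 SOX members. With the block and offsets for GC content and length it called 336, among them SOX4. The labels do not say that library numbers mark a batch. The libraries differed strongly by their number. SOX4 had 275 and 816 CPM with scramble siRNA and 179 and 599 CPM with STAT6 siRNA, so library 2 was the higher one in both groups. Without the block its log2 fold change was -0.49 (95% interval -1.99 to 1.01, adjusted p = 1.00). Within numbers, STAT6 siRNA was below scramble with a log2 difference of -0.62 for number 1 and -0.45 for number 2.

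The groups overlapped for the other members too. SOX12 had 72.3 and 48.7 CPM with scramble siRNA and 97.5 and 47.1 CPM with STAT6 siRNA (log2 fold change 0.26), and SOX13 had 86.7 and 63.5 against 103 and 73.4 CPM (log2 fold change 0.23). SOX9 had 146 and 176 CPM with scramble siRNA against 128 and 188 CPM (log2 fold change -0.02), with a 95% interval of -1.23 to 1.18. SOX6 had 7.07 and 16.3 against 6.47 and 13.5 CPM, and SOX18 had 9.72 and 3.73 against 10.7 and 5.28 CPM. SOX15 had 2.49 and 2.00 against 3.23 and 1.73 CPM, SOX5 had 0.678 and 1.78 against 0.514 and 1.03 CPM, and SOX2 had 0.396 and 0.889 against 0.147 and 0.701 CPM. Of the 9 members tested, 0 had both STAT6 siRNA libraries above both scramble libraries and 0 below, orders shown by 2.74% and 5.26% of all genes. The median log2 fold change was -0.02 over the members and -0.03 over all genes. In the fit without a replicate block the adjusted p of every member was 1.00.

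The order of the libraries within a group followed the GC content of the transcript in the siRNA table. With scramble siRNA the 5 members with at most 55% G and C (SOX2, SOX4, SOX5, SOX6 and SOX9) were higher in library 2 by 0.27 to 1.57 on the log2 scale. The 4 members above 55% (SOX12, SOX13, SOX15 and SOX18) were lower in library 2, with log2 differences of -0.30 to -1.36. With STAT6 siRNA the ranges were 0.56 to 1.74 and -0.49 to -1.05. Over all genes, Spearman's rho between the difference and GC content was -0.75 with scramble siRNA and -0.82 with STAT6 siRNA, and over the 9 members it was -0.88 and -0.82. These are correlations across genes that share the same libraries, and genes are not independent replicates. In Hep3B and in the knockout-labelled libraries rho over all genes was -0.09 and 0.29.

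**Figure D3:**
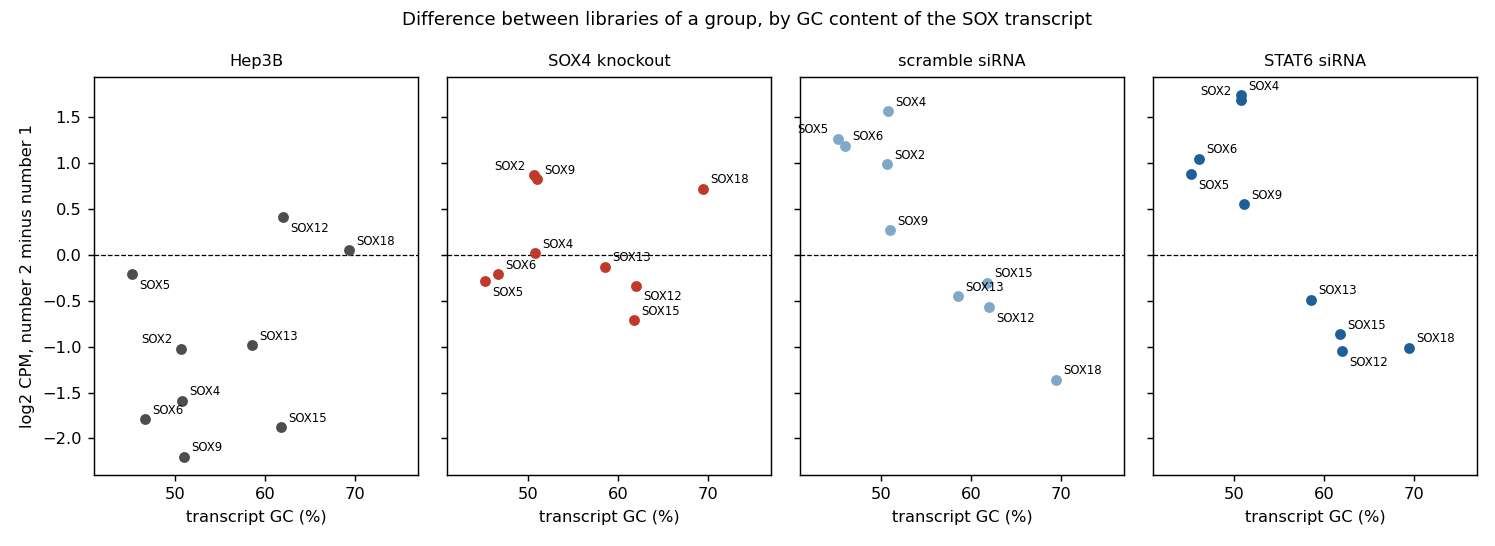
Difference in log2 CPM between library 2 and library 1 of each group (y axis) against the GC content of the SOX transcript in percent (x axis), 1 point per listed SOX gene. In both siRNA groups the GC-poor members lie above 0 and the GC-rich members below, while in Hep3B 7 of 9 members lie below 0.

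The difference between the knockout effect and the siRNA effect was tested in a fit of all 8 libraries. It was called for 0 of 9 members and for 10 of 14632 genes (0.0683%), with 924 at an unadjusted p below 0.05. The count over all genes was 146 with DESeq2, 5 with upper-quartile factors and 1 to 119 on leaving out 1 library, and that over the members was 0 each time. SOX13 had the smallest p among the members, with a difference of 1.42 on the log2 scale (SE 0.73, 95% interval -0.14 to 2.98, adjusted p = 0.859). For SOX12 the difference was 0.65 (95% interval -0.96 to 2.26), for SOX6 1.29 (-0.74 to 3.31), for SOX9 0.81 (-1.09 to 2.71) and for SOX4 -0.42 (-2.47 to 1.64), all with an adjusted p of 1.00. Intervals of this width do not show that the members respond alike.

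Levels of the members were compared with each other per length, as TPM (counts per base of transcript, scaled to the same total in every library). In Hep3B the order was SOX4 at 222 ± 145 TPM (SD, n = 2), SOX9 at 93 ± 80.4, SOX12 at 34.9 ± 9.45, SOX13 at 31.3 ± 12.5, SOX6 at 10.1 ± 7.37, SOX18 at 5.43 ± 0.528, SOX15 at 4.08 ± 3.24, SOX5 at 1.28 ± 0.0543 and SOX2 at 0.595 ± 0.295. SOX4, SOX9, SOX12 and SOX13 overlapped their neighbours in this order, and so did SOX6, SOX18 and SOX15. With the length of the longest transcript SOX6 had 5.79 TPM in Hep3B and SOX18 5.81 TPM, so that their order turned. In the knockout-labelled libraries SOX9 came first at 172 ± 54.5 TPM, with SOX4 at 127 ± 9.55, overlapping it. SOX13 followed at 108 ± 15.6 TPM, SOX12 at 71.4 ± 17.4 and SOX6 at 23.0 ± 4.26 (13.2 with the longest transcript), with no overlap between them. With scramble siRNA SOX4 stood at 230 ± 194 TPM, SOX9 at 95.4 ± 31.6, SOX13 at 47.1 ± 0.737 and SOX12 at 29.3 ± 2.16. With STAT6 siRNA these were 156 ± 148, 88.0 ± 48.0, 49.9 ± 3.15 and 30.4 ± 6.42 TPM. The length used for SOX4, 5852 bases in GENCODE, was 1.2 times the 4879 bases that its row spans in the table, so its TPM would be that much higher with the shorter length.

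The make-up of the family was described by shares of its summed TPM. SOX4 and SOX12 together gave 61.7% and 68.9% of the summed SOX TPM in Hep3B and 42.9% and 34.7% in the knockout-labelled libraries. The SoxD members gave 9.95% and 12.2% in Hep3B and 28.9% and 22.8% in the knockout-labelled libraries. SOX12 alone gave 4.94% and 17.8% against 16.5% and 11.4%, and these overlapped. The ratio of SOX4 to SOX12, both per length, was 11.48 and 2.87 in Hep3B, 1.6 and 2.04 in the knockout-labelled libraries, 3.01 and 13.2 with scramble siRNA and 1.45 and 10.1 with STAT6 siRNA. The summed TPM was 571 and 234 in Hep3B and 507 and 518 in the knockout-labelled libraries, and Hep3B library 2 was the lowest of that table. In bulk RNA, fewer cells expressing a gene and less RNA per cell cannot be told apart. These shares were not tested.

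**Figure D4:**
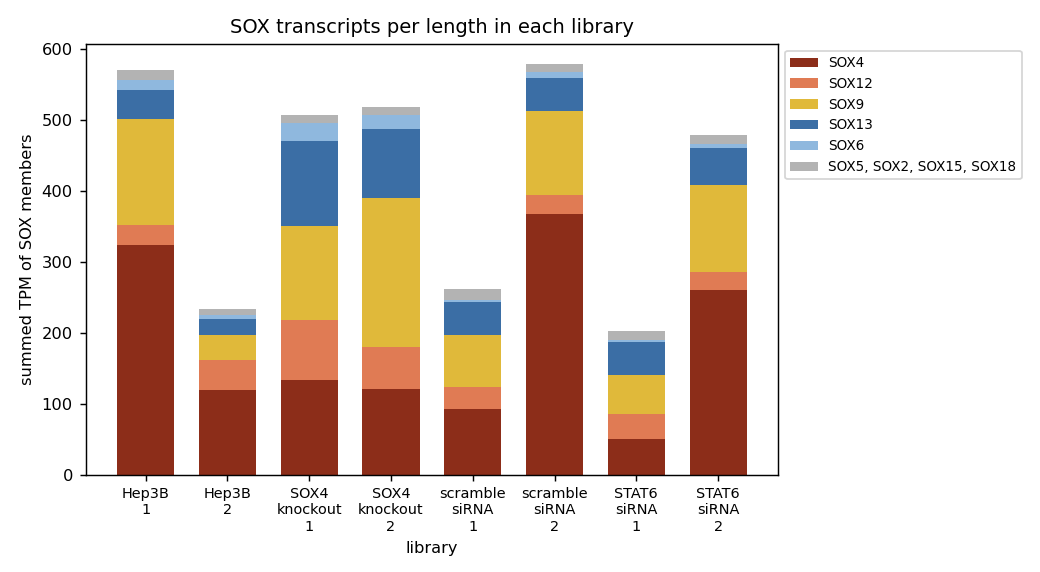
Summed TPM of the listed SOX members in each library (y axis, from 0), stacked by gene, with SOX5, SOX2, SOX15 and SOX18 as 1 grey segment. SOX4 and SOX12 make up 61.7% and 68.9% of the bar for Hep3B and 42.9% and 34.7% in the knockout-labelled libraries, where the SOX13 segment is larger. Libraries scramble siRNA 1 and STAT6 siRNA 1 hold the short bars of the second table.

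The genes whose pattern over the 8 libraries was nearest to that of SOX4 were HULC, HLF, RBMX, SFPQ and TANC2. The measure was the root-mean-square difference of mean-centred log2 CPM, which was 0.28 to 0.30 for these 5 and 1.01 at the median of the 10993 genes compared. HULC is a long noncoding RNA abundant in liver cancer, HLF a PAR bZIP transcription factor, and RBMX and SFPQ are RNA-binding proteins of the nucleus. Among the SOX members SOX2 was nearest to SOX4 at 0.44, followed by SOX9 at 0.85 and SOX15 at 0.88, and SOX12 was the farthest at 1.24. The members were compared without a minimum count, whereas the 5 genes above had a mean of at least 100. SOX2 held only 2 to 20 counts per library and SOX15 was also below that mean, so their nearness rests on few reads. The 8 libraries are shared by all these genes, and the differences by library number enter the measure.

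SOX6 and SOX5 were the listed members with more than 1 RefSeq transcript, 4 each. In SOX6, NM_001145819 took 42.8% and 38.4% of the gene's counts in Hep3B and 42.3% and 32.2% in the knockout-labelled libraries. It took 19.8% and 26.8% with scramble siRNA and 19% and 32.0% with STAT6 siRNA. NM_033326, the longest at 8865 bases, took 16.5% to 47.6% over the 8 libraries. NM_017508 and NM_001145811 stood in the same ratio, 0.887, in all 8 libraries, so the counts did not separate them. For SOX5, with 7 to 82 counts per library, NM_001261415 and NM_006940 stood in the ratio 0.762 in 6 of the 8 libraries, and its transcript shares were not read further.

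**Figure D5:**
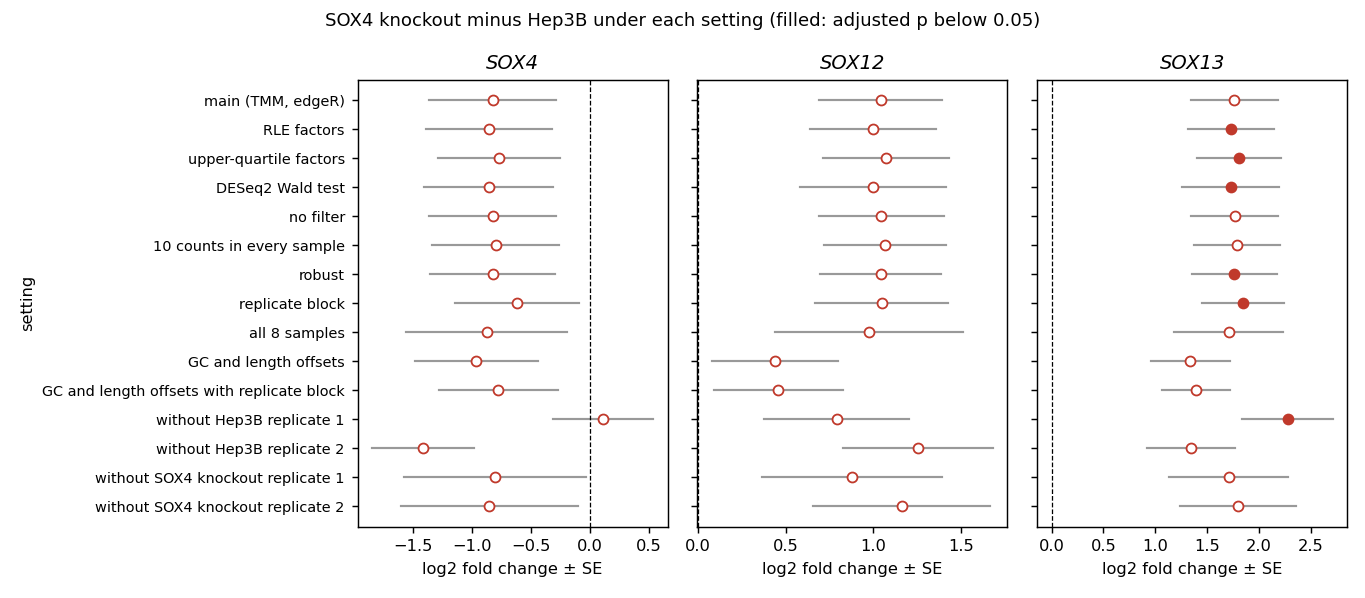
Log2 fold change of SOX4, SOX12 and SOX13 between the knockout-labelled libraries and Hep3B (x axis, with SE bars) under the main setting and each of 14 others (y axis). Filled points have an adjusted p below 0.05. SOX13 lies between 1.34 and 2.28 throughout and is filled at 6 settings, SOX12 and SOX4 at none, and SOX4 crosses 0 without Hep3B replicate 1.

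Other genes tied to the SOX family were read from lists. Of 9 other SOX genes, only SOX7 and SOX8 were listed, with a summed level of at most 0.738 CPM in any library of the first table, and neither was tested. Of 7 listed RNAs that lie over or beside SOX genes, 0 passed (5.89% of all genes tested passed), with a median log2 fold change of -0.15. Of the genes of 11 proteins described as partners of SOX4, 1 fell in the knockout-labelled libraries and 0 rose. Of all genes tested, 1.39% were called lower and 4.5% higher. The 1 that fell was STAT6, with 32.0 and 13.2 CPM in Hep3B and 2.76 and 2.20 CPM in the knockout-labelled libraries (log2 fold change -3.18, SE 0.57, adjusted p = 0.0275). The study itself reports STAT6 as a partner of SOX4 and as lower, in protein and mRNA, in its SOX4-/- cells. Its call is therefore not independent of the list. EZH2, the methyltransferase of Polycomb repressive complex 2, chosen after its values were seen, had 50.2 and 80.6 against 19.8 and 22.9 CPM (log2 fold change -1.62, adjusted p = 0.0528). The median over this list was -0.47. Of the 5 genes for TCF/LEF HMG-box factors and beta-catenin, 0 passed, with a median of 0.60.

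Of 13 genes described as SOX4 or SoxC targets, 10 were tested, 1 rose and 0 fell, with a median of 0.25. Of all genes tested, 4.5% were called higher and 1.39% lower, with a median of 0.01. It was SEMA3C, a secreted semaphorin, with 5.11 and 3.06 CPM in Hep3B and 23.8 and 17.4 CPM in the knockout-labelled libraries (log2 fold change 2.33, adjusted p = 0.0383). Of 7 cartilage genes tied to SOX9, SOX5 and SOX6, 4 were listed, 2 were tested and 1 rose (4.5% of all genes tested were called higher). It was COL2A1, which encodes type II collagen, with 0.341 and 1.42 CPM in Hep3B and 17.2 and 47.1 CPM in the knockout-labelled libraries (log2 fold change 5.16, SE 0.81, adjusted p = 0.0216). COL2A1 passed under 12 of the 13 other settings that gave it a value, and missed the threshold without knockout library 2 (4.22, adjusted p = 0.133). STAT6 passed under 11 of 14 and SEMA3C under 10 of 14. Without knockout library 1 or 2 the adjusted p was 0.141 and 0.196 for STAT6 and 0.222 and 0.180 for SEMA3C.

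Of 10 bile duct and progenitor genes tied to SOX9, 8 were tested and 0 passed, with a median of 0.52. Of all genes tested 5.89% passed, with a median of 0.01. Of 7 pluripotency genes read beside SOX2, 4 were tested and 0 passed, with a median of -0.90. Of 9 TGF-beta pathway genes, which act upstream of SOX4 in other systems, 0 passed, with a median of 0.16. Of 8 endothelial genes tied to SOX18, 3 were tested and 0 passed, and CDH5, VWF and KDR had no row, so that PECAM1 (0.0527 to 0.770 CPM in the first table) was the only listed one of the 4 defining endothelial markers. Of 5 stellate cell and fibroblast markers 3 were listed and 1 rose, PDGFRB, where 4.5% of all genes tested were called higher. PDGFRB went from 2.84 and 1.27 to 9.88 and 13.9 CPM (log2 fold change 2.53, adjusted p = 0.0494). It passed under 7 of 14 other settings and missed the threshold without knockout library 1 or 2. The summed level of the stellate cell and fibroblast list was 3.80 to 6.80 CPM in Hep3B and 16.5 to 24.4 CPM in the knockout-labelled libraries. Its part in the levels of the SOX members was not tested. Of 5 bile duct markers 4 were tested and 0 passed, and of 4 immune markers 2 were listed, 1 was tested and 0 passed. Among the hepatocyte markers APOA1, TTR and FGB rose, with log2 fold changes of 2.40, 3.14 and 2.53, and passed under 9, 11 and 10 of 14 other settings. All 3 missed the threshold without knockout library 1, at 1.61, 2.34 and 1.57 (adjusted p = 0.222, 0.0996 and 0.227), and without knockout library 2 (adjusted p = 0.0888, 0.0540 and 0.0721). Without a replicate block none of the genes of these lists passed in the siRNA experiment. In that fit edgeR called 0 genes in all and 14 had an unadjusted p below 0.05. STAT6, of the list of SOX4 partners, passed there under 2 of 14 other settings.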

How the data were processed

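RNA-seq was measured in 8 Hep3B libraries, 2 per condition, grouped by their labels. The authors deposited expected counts (estimated reads, not normalized) per RefSeq transcript, in 1 table per experiment with 33253 and 30650 transcripts. The submitters' processing notes name STAR, Partek and hg38, and the counting settings and annotation release are not given in the sources used here. Each table held 19 gene names turned into dates, which were kept apart by chromosome. Library totals of 16266282 to 25353113 limit genes of a few counts, such as SOX2.

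Expected counts were summed by gene and rounded. Each table was tested with edgeR 4.0.16 in R 4.3.3 (filterByExpr, TMM factors, quasi-likelihood test, Benjamini-Hochberg adjustment over all genes tested, threshold 0.05), and the difference between experiments in a fit of all 8 libraries. CPM values use TMM factors, log2 CPM a prior count of 2, and TPM values GENCODE 29 transcript lengths. The code was tested on simulated data. Alternatives were DESeq2 1.42.0, RLE (median-of-ratios) or upper-quartile factors, robust estimation, a minimum of 10 counts per library or none at all, a replicate block, a fit of all 8 libraries, offsets for GC content and length (mgcv 1.9.3), and leaving out each library.

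The SOX members, gene lists and tests were chosen with earlier results of these data known. All members were named, along with list genes that passed the test or lie beside a member, and the 5 genes nearest to SOX4 in pattern among those with a mean of at least 100 counts. Sequences came from GENCODE 29 (GRCh38) and RefSeq (GRCh38.p14).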

Additional observations from a re-analysis of the deposited data

How the results depend on the processing

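In the comparison of SOX4 knockout with Hep3B the number of genes called was 849, and 2160 with DESeq2, 518 with at least 10 counts in every library, and 57 with GC and length offsets together with the replicate block. Leaving out 1 library gave 21 to 2298 (2298 and 1322 without Hep3B library 1 or 2, 73 and 21 without knockout library 1 or 2), where the library left alone in its group is assumed to vary like the others. The number of SOX members called was 0, and 1 with RLE factors, upper-quartile factors, DESeq2, robust estimation or the replicate block, SOX13 each time, and 0 to 3 on leaving out 1 library. In the siRNA table the replicate block called 62 genes and the block with GC and length offsets 336, among them 1 SOX member, SOX4 (-0.49, adjusted p = 0.0125). The cause was not tested in any of these cases.

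The labels do not say that a library number marks a shared batch, so the numbers were not taken to pair the libraries. The differences between numbers correlated across genes with r = -0.08 in the first table and 0.87 in the second, as a hint from the data only. The block called 102 genes in the test of the difference between experiments, against 10 without it. With the replicate block SOX13 had an adjusted p of 0.0307 in the first table, and STAT6 one of 4.11e-20 in the second. With the block and offsets together the list genes STAT6, APOA1, FGB, PDGFRB, SEMA3C and TTR missed the threshold in the first table.

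Signs turned for some members. In the first table SOX18 was -0.62 with GC and length offsets and -0.65 with these and the block. Leaving out 1 library gave -1.42 to 0.11 for SOX4, -1.20 to 0.72 for SOX15 (both above 0 without Hep3B library 1) and -0.23 to 0.55 for SOX18 (below 0 without knockout library 2). In the siRNA table, offsets alone and with the block gave -0.044 and -0.045 for SOX12, 0.026 and 0.018 for SOX9, -0.18 and -0.17 for SOX15, and -0.014 and -0.0042 for SOX18. SOX9 was 0.052 with RLE factors and with DESeq2, and 0.020 in the fit of all 8 libraries. Leaving out 1 siRNA library gave -1.61 to 0.50 for SOX4, -0.36 to 0.68 for SOX12, -0.33 to 0.23 for SOX9, -1.26 to 0.22 for SOX5, -0.86 to 0.50 for SOX6, -0.031 to 0.54 for SOX13, -2.10 to 0.18 for SOX2, -0.37 to 0.52 for SOX15 and -0.35 to 1.17 for SOX18. These turns came without scramble library 2 or STAT6 siRNA library 1. In the test of the difference SOX18 was 0.014 with upper-quartile factors, and leaving out 1 library gave -1.40 to 0.64 for SOX4, -1.43 to 0.50 for SOX15 and -0.99 to 0.57 for SOX18. With other transcript lengths 6 of 36 TPM values, and counted per length 10 of 28 transcript shares, moved by more than the spread between libraries.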
